A study of Mus musculus with 41 samples.

Results

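The genes described here are 34 mouse genes of ribosome biogenesis together with widely used targets of the transcription factor MYC, followed in 41 melanomas of the iBIP model. They were chosen by name, and each was read from the Affymetrix probe set of highest mean over all arrays among those that name exactly 1 gene. That rule found 33 of the 34 genes, out of 18194 genes on the array, and all 33 passed the filter on low values that left 14319 genes to test. Mrto4, a late assembly factor of the large ribosomal subunit, has only a probe set naming several genes and was not measured.

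In iBIP mice a mutant BRAF transgene that is switched on by doxycycline drives melanoma. All tumours arose on doxycycline, and the drug was then taken out of the drinking water for 1 day (7 tumours), 2 days (5), 3 days (6), 6 days (4), 9 days (3), 16 days (1), 29 days (1) or 63 to 163 days (10, called late tumours), while the 4 tumours of day 0 stayed on it. The tissue was trimmed whole tumour, so a lower value cannot tell apart fewer cells of a type and less RNA per cell. The labels do not say that each tumour came from its own mouse, and p-values therefore measure only the spread between these samples. Nor is it stated which late tumours were residual tissue and which were growing again.

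Ribosomes are built in the nucleolus. RNA polymerase I transcribes the ribosomal RNA precursor, small nucleolar ribonucleoproteins modify it, and assembly factors cut, fold and export the small and large subunits. In growing cells MYC raises transcription of many of these factors and of enzymes for nucleotides and polyamines. MYC acts as a dimer with MAX, which binds the letters CACGTG (the E-box), while MAX also pairs with MXD proteins and MNT, which oppose it.

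Promoter windows of 4 of these genes are printed as examples. The E-box lies in the windows of Nop2 and Ran, which had a lower late level, and of Pes1, which had no late call. Odc1 had a lower late level and no E-box in its window. Bases outside the windows were not searched. Windows of 300 bases, 250 before and 50 after the gene's start, were taken from RefSeq (GRCm38.p6) and were at hand for 29 of the 34 genes. CACGTG reads the same on both strands, and it lay in the windows of 8 genes (Mybbp1a, Nme1, Nop2, Pes1, Ran, Tsr1, Utp20 and Wdr43), or 27.6% of the 29, against 8.09% of 27025 genes with a window. Capitals mark it, and each sequence is written 5′ to 3′ along the gene.
Nop2 (chr6:125131633-125131932, plus strand): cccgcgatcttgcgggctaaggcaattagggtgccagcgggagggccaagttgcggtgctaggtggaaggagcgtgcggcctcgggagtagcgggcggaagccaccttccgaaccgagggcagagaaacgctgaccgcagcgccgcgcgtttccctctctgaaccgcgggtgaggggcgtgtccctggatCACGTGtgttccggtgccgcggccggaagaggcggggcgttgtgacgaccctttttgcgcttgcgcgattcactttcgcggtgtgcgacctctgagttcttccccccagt
Ran (chr5:129019906-129020205, plus strand): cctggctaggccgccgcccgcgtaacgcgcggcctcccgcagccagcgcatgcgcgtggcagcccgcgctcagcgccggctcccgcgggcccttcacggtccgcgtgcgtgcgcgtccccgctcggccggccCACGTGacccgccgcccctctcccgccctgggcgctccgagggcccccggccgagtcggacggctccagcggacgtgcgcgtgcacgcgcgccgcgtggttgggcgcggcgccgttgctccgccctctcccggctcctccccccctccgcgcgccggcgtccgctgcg
Pes1 (chr11:3963725-3964024, plus strand): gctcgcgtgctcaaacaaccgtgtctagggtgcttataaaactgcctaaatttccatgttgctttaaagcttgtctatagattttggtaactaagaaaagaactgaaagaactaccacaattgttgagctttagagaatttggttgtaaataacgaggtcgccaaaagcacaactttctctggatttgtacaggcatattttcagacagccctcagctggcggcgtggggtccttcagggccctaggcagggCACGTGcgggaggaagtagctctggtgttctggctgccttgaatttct
Odc1 (chr12:17544623-17544922, plus strand): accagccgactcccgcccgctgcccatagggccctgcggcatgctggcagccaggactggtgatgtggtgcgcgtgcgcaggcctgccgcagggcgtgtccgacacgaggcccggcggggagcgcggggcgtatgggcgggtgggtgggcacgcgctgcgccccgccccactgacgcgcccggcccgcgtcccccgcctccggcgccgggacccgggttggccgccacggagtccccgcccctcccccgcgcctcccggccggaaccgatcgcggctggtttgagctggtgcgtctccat
Counted from the gene's start, the E-box begins at base -60 in Nop2, at base -118 in Ran and at base 3 in Pes1, and the Odc1 window does not hold these letters. Nop2 and Ran were lower in late tumours than at day 0, Pes1 differed by 0.03 on the log2 scale, and Odc1 had the lowest log2 difference of the 33 genes. Of the 8 genes with the motif 2 were lower in late tumours, against 6 of the 21 with a window and no motif. Over all tested genes 20.1% were lower in late tumours, and the motif's part was not tested.

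Some facts of the arrays follow the groups. Hybridisation and labelling spike-ins divide the arrays into 3 sets. Set 1 holds days 2, 3 and 6 with 1 tumour of day 1, set 2 the other 6 tumours of day 1 with 8 late tumours, and set 3 days 0, 9, 16 and 29 with late replicates 9 and 10. Gapdh signal at the 3′ end minus that at the 5′ end, a gap known to widen with RNA breakdown, was above 2 on the log2 scale in 8 of 10 late tumours and in 1 tumour of day 9. Its group means lay between -0.11 and 0.51 for days 0 to 6, and the late mean was 2.62. Of 11 measured melanocyte marker genes 9 passed the filter on low values. Late replicate 9, from day 136, stands apart in these genes and is described at the end. Members whose call in late tumours against day 0 changes without it are given both ways.

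Averaged over the 33 genes, expression was highest at day 0 and, among the groups of several tumours, lowest at days 3 and 6. Day 0 tumours averaged a log2 intensity of 9.30 ± 0.12 (SD, n = 4). Day 1 tumours averaged 9.09 ± 0.10 (n = 7) and day 2 tumours 9.14 ± 0.12 (n = 5). On day 3 the mean was 8.89 ± 0.12 (n = 6), on day 6 it was 8.90 ± 0.11 (n = 4) and on day 9 it was 8.97 ± 0.24 (n = 3). It was 8.98 in the tumour of day 16, 8.89 in that of day 29 and 9.05 ± 0.28 (n = 10) in late tumours, or 8.97 ± 0.13 (n = 9) without late replicate 9. All tumours of days 3 and 6 lay below all tumours of day 0 in this mean, while 2 tumours of day 1 and 1 each of days 2 and 9 reached into the day 0 range and late replicate 9 lay above it. Day 0 had the highest group mean for 19 of the 33 genes, day 2 for 7 and the late tumours for 7. The lowest group mean fell at day 3 for 11 genes, at day 6 for 8, at day 9 for 6 and in late tumours for 5.

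**Figure D1:**
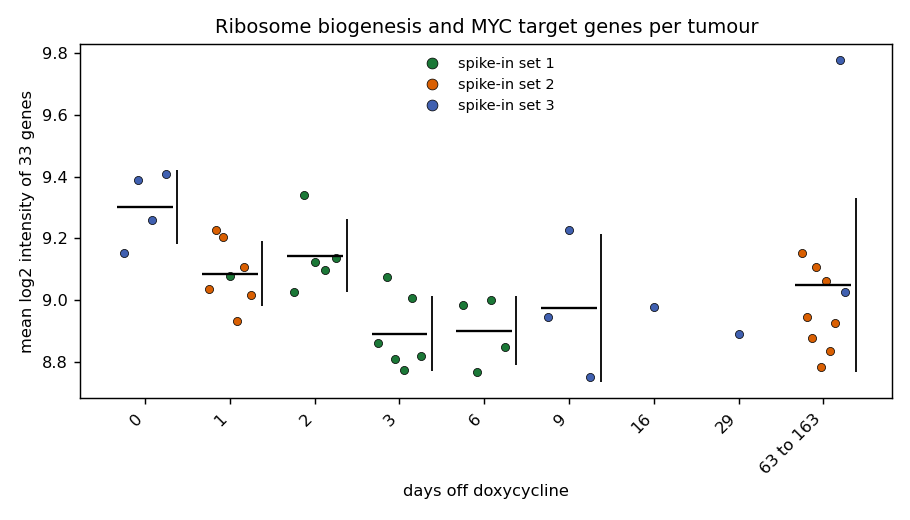
Mean log2 intensity of the 33 measured genes in each tumour (points, coloured by spike-in set) against days off doxycycline, with the group mean (horizontal line) and SD (vertical line). Days 3 and 6 lie below day 0, and late replicate 9 at 9.78 is the highest of all 41 tumours.

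A gene is called lower or higher here at a Benjamini-Hochberg adjusted p under 0.05 over all tested genes in 1 limma fit. Against day 0, day 1 had 1 member lower and none higher (6.25% of all tested genes were lower, 7.57% higher, 13.8% either) and day 2 had 2 lower and none higher (8.35%, 6.74% and 15.1%). Day 3 had 15 members lower and none higher, where 11.6% of all tested genes were lower, 9.74% higher and 21.3% either. Day 6 had 7 lower and none higher (6.46%, 5.74% and 12.2%), and day 9 had 1 lower and none higher (1.91%, 2.65% and 4.56%). Late tumours had 11 members lower and 1 higher, where 20.1% of all tested genes were lower, 26.3% higher and 46.4% either. Day 3 is the time at which the members' count (15 of 33) lies farthest above its background, and the late count of 11 of 33 lies closer to it. The median member difference was -0.21, -0.16, -0.42, -0.39, -0.31 and -0.24 from day 1 to the late tumours, against medians between -0.02 and 0.05 over all tested genes. Every tumour lay below every day 0 tumour for 3 members at day 1 (4.37% of all tested genes), 7 at day 2 (10.1%) and 8 at day 9 (8.02%). These comparisons share the 4 tumours of day 0. In all, 17 genes were lower in at least 1 of them and 16 in none, among them Npm1, Ncl, Polr1b and Pes1.

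**Figure D2:**
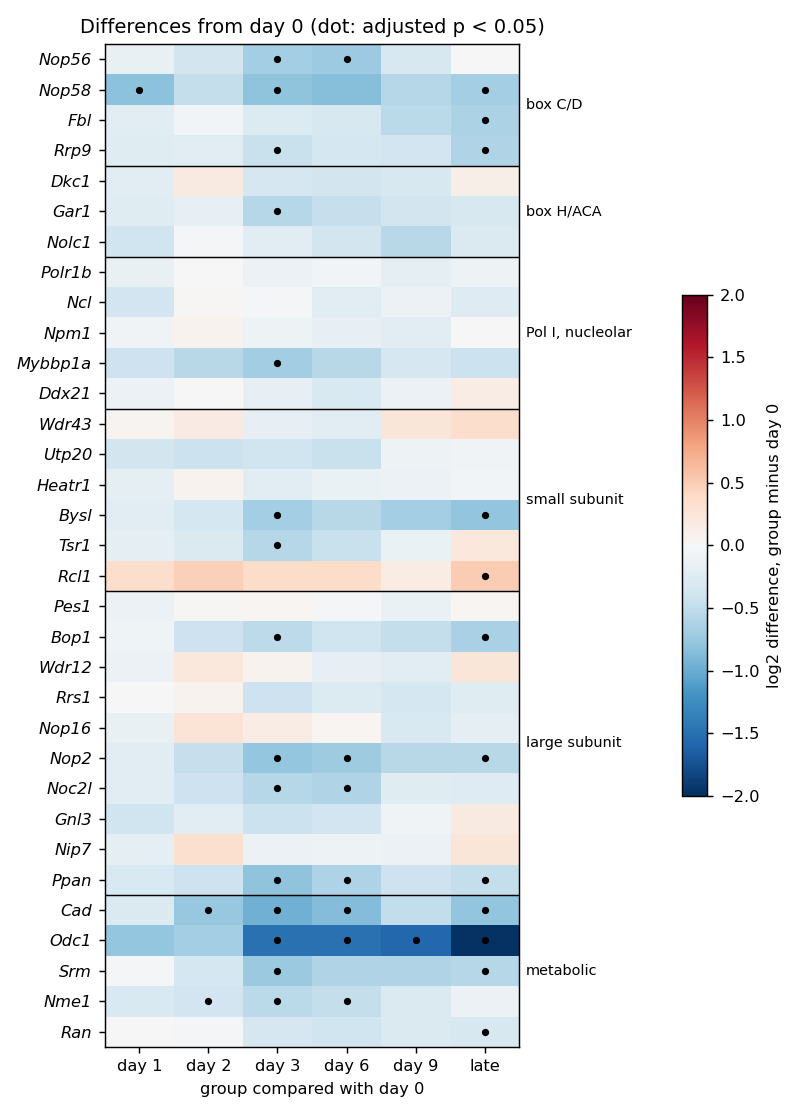
Log2 difference from day 0 for each of the 33 genes (rows, grouped by role) at each time (columns), blue for lower and red for higher than day 0, with a dot where the adjusted p is under 0.05. Odc1 has the deepest blue, day 3 the most dots (15), and Rcl1 is red at every time.

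The first days brought few calls. Markers of other cells already moved then, and their part was not tested: at day 1, 6 of 11 macrophage genes (median difference 1.34), 8 of 9 T and NK cell genes (1.84) and 3 of 5 nerve and Schwann cell genes (2.46) were higher than at day 0. At day 1 only Nop58, a core protein of the box C/D particles that guide methylation of ribosomal RNA, was lower. It read 8.35, 8.53 and 8.96 (lowest, median and highest of 7) at day 1, against 9.07, 9.48, 9.43 and 9.65 at day 0, so that the groups did not overlap. The difference was -0.82 ± 0.26 (SE, adjusted p = 0.0309), and it was no longer called when any of day 1 replicates 2, 3 and 5 or day 0 replicates 2, 3 and 4 was left out (adjusted p = 0.0518 to 0.122). Nme1, a nucleoside diphosphate kinase, differed by -0.31 ± 0.11 (adjusted p = 0.0610), Odc1 by -0.77 ± 0.29 (0.0705), Ncl, the histone chaperone nucleolin, by -0.38 ± 0.15 (0.0847), and none of the 3 was called. At day 2 Cad and Nme1 were lower. Cad encodes the enzyme that starts pyrimidine synthesis, and it read 7.44, 7.15, 7.20, 6.95 and 7.22 at day 2, against 8.15, 7.94, 7.81 and 7.92 at day 0. All 5 tumours of day 2 lay below all 4 of day 0 (difference -0.76 ± 0.23, adjusted p = 0.0236), not called once day 2 replicate 4 or day 0 replicate 1 or 4 was left out (adjusted p = 0.0526 to 0.0749). Nme1 differed by -0.38 ± 0.12 (adjusted p = 0.0283), and lost its call when day 2 replicate 1 or 5, or day 0 replicate 3 or 4, was left out (0.0572 to 0.127). Rcl1, needed for cutting the small subunit precursor, was at 0.48 ± 0.17 (adjusted p = 0.0509).

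At day 3 the lower genes came from every role group, with only 1 each from the box H/ACA and RNA polymerase I groups. They were 3 of 4 box C/D genes (Nop56, Nop58 and Rrp9), 1 of 3 box H/ACA genes (Gar1), 1 of 5 genes of RNA polymerase I and the nucleolus (Mybbp1a), 2 of 6 small subunit factors (Bysl and Tsr1), 4 of 10 large subunit factors (Bop1, Nop2, Noc2l and Ppan) and 4 of 5 metabolic and transport genes (Cad, Odc1, Srm and Nme1). Of the 33 genes 29 had a negative difference, and 12 had all 6 tumours of day 3 below all 4 of day 0, as did 10.5% of all tested genes.

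Odc1 encodes ornithine decarboxylase, the enzyme that commits ornithine to polyamines. It read 10.27, 10.72 and 11.52 (lowest, median and highest of 6) at day 3, against 12.96, 12.10, 11.45 and 12.64 at day 0. A single day 3 tumour reached past the lowest of day 0, and the difference was -1.49 ± 0.30 (adjusted p = 0.000708). Nop2, a methyltransferase of large subunit ribosomal RNA, read 7.51, 7.66 and 7.86 at day 3, against 8.52, 8.53, 8.20 and 8.57 at day 0. Its groups did not overlap (difference -0.78 ± 0.18, adjusted p = 0.0023). Cad differed by -0.96 ± 0.22 (adjusted p = 0.0026) and Nme1 by -0.54 ± 0.11 (0.0012), both with day 3 wholly below day 0. Nop56, the partner of Nop58 in box C/D particles, differed by -0.68 ± 0.21 (0.0169), and Bop1, which with Pes1 and Wdr12 forms the PeBoW complex of large subunit assembly, by -0.53 ± 0.16 (0.0158). Both of these were no longer called without day 0 replicate 4 (0.0858 and 0.0507), and the count of called members was then 9 (11.4% of all tested genes). Ncl at -0.02 and Polr1b, the second largest subunit of RNA polymerase I, at -0.12 were not called.

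At day 6 the called genes were Nop56, Nop2, Noc2l, Ppan, Cad, Odc1 and Nme1, and each was also called at day 3. Odc1 read 10.93, 10.57, 10.91 and 10.78 at day 6, against 12.96, 12.10, 11.45 and 12.64 at day 0. The 4 tumours of day 6 lay close together and wholly below day 0 (difference -1.49 ± 0.33, adjusted p = 0.0031). Nop2 differed by -0.72 ± 0.19 (0.0140), Cad by -0.86 ± 0.24 (0.0175), Nme1 by -0.47 ± 0.13 (0.0126), Nop56 by -0.72 ± 0.23 (0.0301) and Bop1, not called, by -0.39 ± 0.17 (0.134). Without 1 tumour the count of called members ran between 2, without day 0 replicate 4 (5.81% of all tested genes), and 7. Of Nop56, Nop2, Cad, Nme1 and Odc1 only Odc1 was called in every such run. The count was 4 without day 0 replicate 1 (8.93%) and 3 without day 6 replicate 1 or replicate 4 (8.16% and 8.28%). A fit of the compared groups alone gave 15, all lower (13.6% of all tested genes called either way). Without tumours of a Gapdh difference above 2 it gave 17, all lower (18.2%). In 17 of 33 genes all tumours of day 6 lay below all of day 0, against 12.4% of all tested genes.

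Days 2, 3 and 6 share a spike-in set that day 0 does not. With the set as a covariate, a fit that ties the sets together only through day 1 replicate 4 and late replicates 9 and 10, no member was called at day 2, 3 or 6, and few genes of any kind were (0.552%, 0.936% and 0.489% of all tested genes). Without the covariate, limma gave an unadjusted p under 0.05 to 11 members at day 2 (33.3%, against 29.8% of all tested genes), 19 at day 3 (57.6%, against 34%) and 18 at day 6 (54.5%, against 27.4%). With the set as a covariate, Bop1, Cad and Nop56 had positive differences at these days (0.34 to 0.48, 0.52 to 0.72 and 0.33 to 0.68). Within set 1, day 6 against day 2 gave no called member among 0 called genes of 14319 (0% called; 5 members and 572 genes had an unadjusted p under 0.05, and array weights called 3 genes, none a member). In that comparison 31 of 33 members had a negative difference, with a median of -0.23 against 0.01 over all genes, and 2 members, Odc1 and Ran, had all tumours of day 6 below all of day 2 (0.608% of all tested genes). The lowest p belonged to Dkc1, the pseudouridine synthase of box H/ACA particles, at -0.54 ± 0.18 (adjusted p = 1), Nip7 at -0.43 ± 0.16, Odc1 at -0.82 ± 0.31 and Ran, the GTPase of nuclear transport, at -0.34 ± 0.14. Cell type markers also moved at these times, and their part in the result was not tested. At day 3, 8 of 11 macrophage genes and 6 of 9 T and NK cell genes were higher than at day 0, and the macrophage mean per tumour ran from 10.55 to 11.05, against 8.67 to 9.91.

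At day 9 Odc1 alone was called. It read 10.77, 11.21 and 10.18 at day 9, against 12.96, 12.10, 11.45 and 12.64 at day 0. The groups did not overlap (difference -1.57 ± 0.36, adjusted p = 0.0107). Both groups lie in spike-in set 3, and within that set alone the difference was the same with an adjusted p of 0.173. Without day 9 replicate 3, the tumour with the Gapdh difference above 2, it was -1.30 (adjusted p = 0.176) and no member was called (0.251% of all tested genes were). Without day 9 replicate 2, whose mean over the 33 genes (9.23) lay within the day 0 range, 6 were (8.64% of all tested genes). Fbl differed by -0.54 ± 0.20 (adjusted p = 0.110), Rrp9 by -0.38 ± 0.14 (0.113) and Nop2 by -0.56 ± 0.21 (0.114). The single tumours of days 16 and 29 had Odc1 at 10.52 and 10.49 and Cad at 7.41 and 7.20, below every tumour of day 0.

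**Figure D3:**
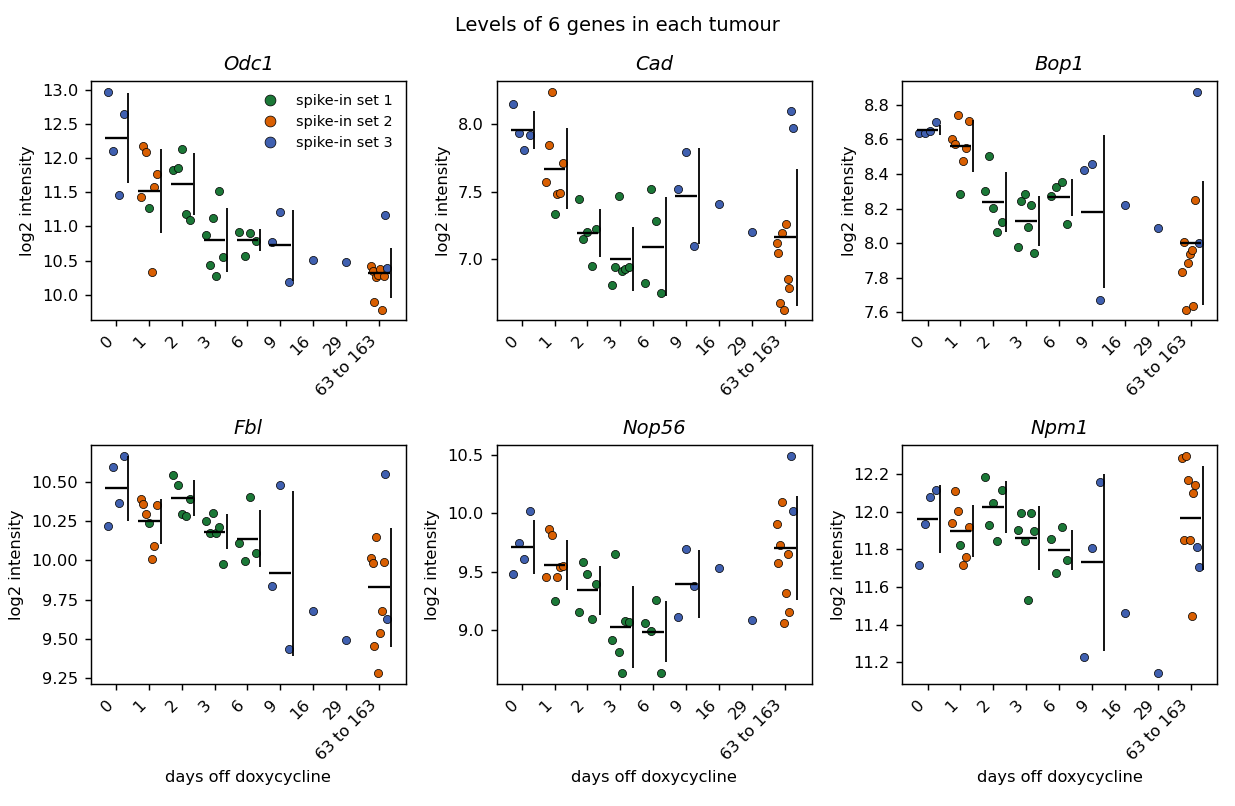
Log2 intensity of Odc1, Cad, Bop1, Fbl, Nop56 and Npm1 in each tumour (points, coloured by spike-in set) against days off doxycycline, with group mean (horizontal line) and SD (vertical line). Odc1 is lowest in late tumours, Nop56 is lowest at days 3 and 6, and Npm1 has nearly the same late and day 0 means (11.97 and 11.96).

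In late tumours the 11 lower genes were Odc1, Cad, Bysl, Nop58, Bop1, Fbl, Rrp9, Srm, Nop2, Ppan and Ran, and Rcl1 was the 1 higher gene. Of these 11 genes 9 were among the 15 lower at day 3, with both comparisons resting on the same day 0 tumours.

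Among the metabolic genes, Odc1 read 9.79, 10.32 and 11.16 (lowest, median and highest of 10) in late tumours, against 12.96, 12.10, 11.45 and 12.64 at day 0. It was the 1 member with every late tumour below every tumour of day 0, as were 7.67% of all tested genes. The difference was -1.97 ± 0.28 (adjusted p = 1.04e-06), or 3.92-fold lower, and its other probe sets gave -2.62 and -1.46. Cad read 6.62, 7.08 and 8.10 in late tumours, against 8.15, 7.94, 7.81 and 7.92 at day 0. Late replicates 9 and 10 lay within the day 0 range and the other 8 below it (difference -0.80 ± 0.20, adjusted p = 0.0019). Srm, spermidine synthase, differed by -0.57 ± 0.19 (0.0124) and Ran by -0.33 ± 0.13 (0.0332), calls that ended without day 0 replicate 2 or 3 (0.0511 to 0.113), that of Ran also without late replicate 2, 3 or 7 (0.0523 to 0.0579). Nme1, lower at days 2, 3 and 6, was at -0.11 ± 0.11 (0.405).

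Genes whose proteins share a particle were not all called, and the differences between them were not tested. In the box C/D particle, the methyltransferase Fbl read 9.28, 9.83 and 10.55 in late tumours, against 10.21, 10.59, 10.36 and 10.66 at day 0. All late tumours but replicate 9 were below day 0 (difference -0.63 ± 0.16, adjusted p = 0.0014). Nop58 differed by -0.68 ± 0.25 (0.0235), a call lost without day 0 replicate 2, 3 or 4 (0.0504 to 0.0823), and Rrp9, a protein of the snoRNA particle for small subunit processing, by -0.60 ± 0.11 (4.6e-05). Nop56 read 9.07, 9.69 and 10.49 in late tumours, against 9.48, 9.75, 9.61 and 10.02 at day 0. Its late range enclosed that of day 0, and the difference was -0.01 ± 0.19 (adjusted p = 0.974), but its other probe set was at -0.50 ± 0.15 (adjusted p = 0.0052), so that the Nop56 result depends on the probe set. In the PeBoW complex, Bop1 read 7.62, 7.95 and 8.87 in late tumours, against 8.64, 8.64, 8.65 and 8.70 at day 0. The 4 tumours of day 0 were tightly grouped, 9 late tumours were below them and late replicate 9 above (difference -0.66 ± 0.14, adjusted p = 0.0004). Its other probe set was at -0.18 ± 0.08 (0.0608). Wdr12 at 0.24 ± 0.18 (0.274) and Pes1 at 0.03 ± 0.09 (0.786) were not called, although a second Pes1 probe set was at 0.34 ± 0.12 (0.0155).

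The gap between partners within each tumour restates these values and adds no support to them. The pairs were chosen after the values were seen and were not tested. Bop1 minus Pes1 averaged -0.85 ± 0.34 (SD, n = 10) in late tumours and -0.16 ± 0.06 (n = 4) at day 0, with no overlap (-1.31 to -0.31, against -0.21 to -0.07). Bop1 minus Wdr12 averaged -0.26 ± 0.43 in late tumours and 0.64 ± 0.43 at day 0, and Fbl minus Nop56 averaged 0.12 ± 0.34 in late tumours and 0.75 ± 0.08 at day 0. Pes1 minus Wdr12 averaged 0.58 ± 0.26 in late tumours and 0.79 ± 0.38 at day 0. In the 2 late tumours with a Gapdh difference of 2 or less the late minus day 0 value was -0.34 for Bop1 minus Pes1, -0.81 for Bop1 minus Wdr12 and -0.22 for Fbl minus Nop56, and Nop58 minus Nop56 turned to 0.49, against -0.67 with all 10.

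The remaining roles gave few late calls. In the box H/ACA group Dkc1 was at 0.11 ± 0.16 (adjusted p = 0.574), its partner Gar1 at -0.32 ± 0.15 (0.0681) and the chaperone Nolc1 at -0.29 ± 0.19 (0.220). Without late replicate 9, Gar1 was called at -0.43 (0.0011) and Nolc1 at -0.41 (0.0287). None of the 5 genes of RNA polymerase I and the nucleolus was called with all 10 late tumours. Polr1b was at -0.10 ± 0.15 (0.622), Ncl at -0.25 ± 0.14 (0.139), the nucleolar chaperone Npm1 at 0.01 ± 0.13 (0.979), the rDNA-associated regulator Mybbp1a at -0.43 ± 0.22 (0.100) and the helicase Ddx21 at 0.15 ± 0.17 (0.483). Without late replicate 9, Mybbp1a was called at -0.58 (0.0066) and Ncl at -0.32 (0.0411), and the other Mybbp1a probe set was called with all tumours at -0.92 ± 0.23 (0.0011). The small subunit group split, with Bysl, which binds late precursors, at -0.78 ± 0.20 (0.0019) and Rcl1 at 0.51 ± 0.15 (0.0052), the Rcl1 call ending without day 0 replicate 1 (0.0526). The other Bysl probe set was not called, at -0.23 ± 0.15 (0.225). Rcl1 read 7.33, 7.63 and 8.31 in late tumours, against 6.78, 7.34, 7.18 and 7.32 at day 0. A single late tumour lay within the day 0 range. Wdr43 was at 0.36 ± 0.16 (0.0622), the GTPase-like Tsr1 at 0.21 ± 0.13 (0.209), and the processome scaffolds Utp20 and Heatr1 at -0.08 ± 0.17 (0.726) and -0.05 ± 0.16 (0.804).

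Among the large subunit factors, Nop2 was at -0.55 ± 0.16 (adjusted p = 0.0062) and Ppan at -0.48 ± 0.17 (0.0234), the Ppan call ending without day 0 replicate 1, 2 or 4 (0.0560 to 0.0641). Not called were Rrs1 at -0.24 ± 0.19 (0.316), Nop16 at -0.20 ± 0.18 (0.355), Noc2l at -0.26 ± 0.16 (0.182), the nucleolar GTPase Gnl3 at 0.19 ± 0.16 (0.348) and Nip7 at 0.24 ± 0.14 (0.161). Without late replicate 9, Noc2l was called at -0.38 (0.0114) and Rrs1 at -0.37 (0.0361). The other Noc2l probe set was called with all tumours at -0.46 ± 0.16 (0.0192). The probe sets for 7 of the 21 genes that have several disagreed in sign (Ddx21, Dkc1, Heatr1, Ncl, Nolc1, Npm1 and Wdr43), so these directions depend on the probe set. A second Ddx21 probe set was at -1.16 ± 0.18 (adjusted p = 3.6e-06) and a second Dkc1 probe set at -0.91 ± 0.23 (0.0013). Other Ncl probe sets were called both higher, at 0.86 ± 0.26 (0.0060), and lower, at -0.23 ± 0.09 (0.0314). Other Nolc1 probe sets were likewise called higher, at 0.44 ± 0.17 (0.0273), and lower, at -0.87 ± 0.13 (1.6e-06).

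**Figure D4:**
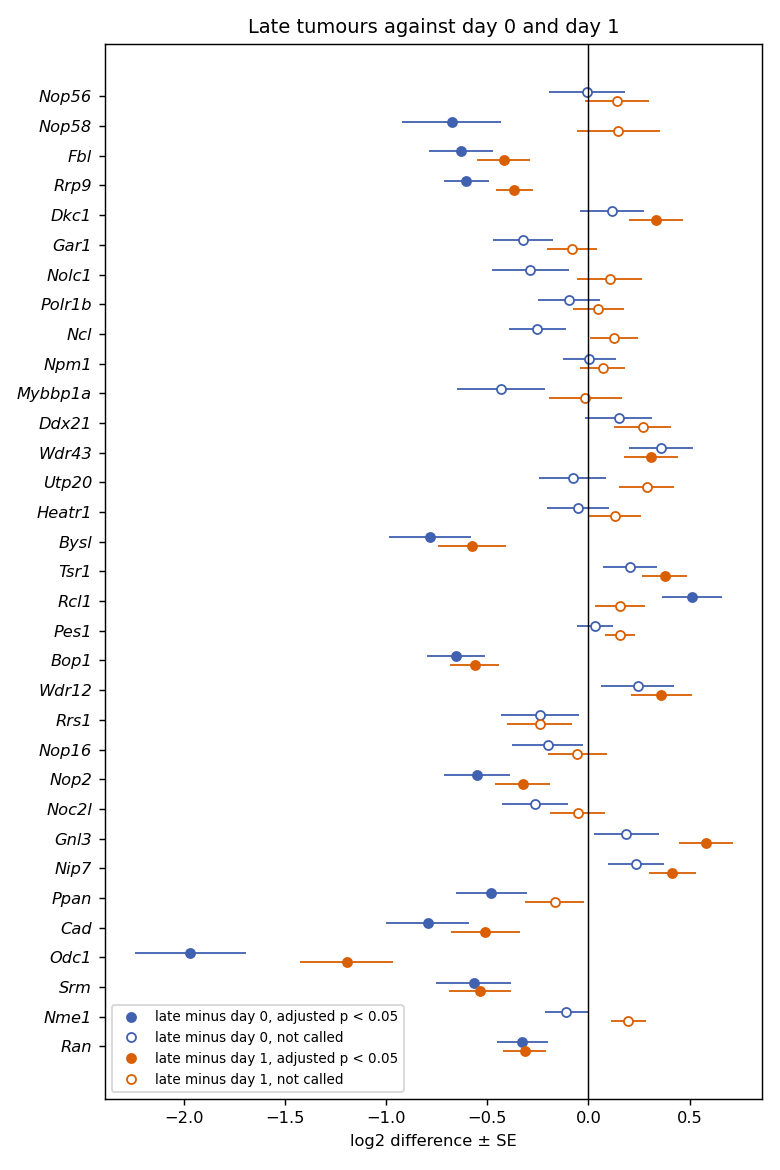
Log2 difference ± SE of late tumours from day 0 (blue) and from day 1 (orange) for each of the 33 genes, filled where the adjusted p is under 0.05. Odc1, Cad, Bop1, Bysl, Fbl, Rrp9, Srm, Nop2 and Ran are filled to the left in both, and Dkc1, Wdr43, Tsr1, Wdr12, Gnl3 and Nip7 are filled to the right against day 1.

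The late calls differed between fits that took the Gapdh difference, the spike-in set or late replicate 9 into account. Late replicate 9 has a Gapdh difference above 2, so the run without such tumours also leaves it out. That run cannot tell the 2 apart. In the 2 late tumours with a Gapdh difference of 2 or less, 18 members were lower and none higher (28.2% of all tested genes called either way), the median was -0.51, and Nop56 was at -0.60 (adjusted p = 0.0444) and Polr1b at -0.50 (0.0148), while Nop58 was at -0.11 (0.816). With that difference as a covariate, 5 members were lower and 1 higher (24.2% of all tested genes called), and fitting the compared groups alone gave 6 and 1 (37.6%). Within spike-in set 3, where the late tumours are replicates 9 and 10 only, no member was lower and 1 was higher (16.3% of all tested genes called), Tsr1 at 0.65 (0.0304), and Odc1 was at -1.52 (0.0511). With the set as a covariate 3 were lower and 6 higher (30.1%), and the differences were again those of replicates 9 and 10 from day 0. Leaving out late replicate 9 gave 17 lower and 1 higher (47.8%). With the set as a covariate as well, the difference rests on late replicate 10 alone, and no count is given. Without 1 tumour, the count of called members ran from 9 (without day 0 replicate 2 or 3) to 18 (without late replicate 9). The shares of all tested genes called in these runs were 41.6%, 42.1% and 47.8%.

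Against day 1, 9 members were lower in late tumours (Fbl, Rrp9, Bysl, Bop1, Nop2, Cad, Odc1, Srm and Ran) and 6 higher (Dkc1, Wdr43, Tsr1, Wdr12, Gnl3 and Nip7), while 22.8% of all tested genes were lower, 28.9% higher and 51.7% either. Probe sets disagreed in sign for 6 of 21 genes (Ddx21, Dkc1, Heatr1, Ncl, Nolc1 and Rrs1), with the other Dkc1 sets at -0.06 ± 0.19 and -0.05 ± 0.21. Second sets of Wdr43, Nip7, Bysl and Bop1 were not called, while the other tested sets of Fbl, Tsr1, Cad and Odc1 were called in the same direction. The members' median was 0.07, and over all tested genes 0.06, and no member had every late tumour below every tumour of day 1 (3.72% of all tested genes). Odc1 read 9.79, 10.32 and 11.16 in late tumours, against 10.33, 11.57 and 12.17 at day 1 (lowest, median and highest of 7), a difference of -1.20 ± 0.23 (adjusted p = 6.5e-05). Bop1 read 7.62, 7.95 and 8.87 in late tumours, against 8.29, 8.57 and 8.74 at day 1 (difference -0.56 ± 0.12, adjusted p = 0.00025). Gnl3 read 9.91, 10.29 and 11.12 in late tumours, against 9.34, 9.75 and 9.97 at day 1 (difference 0.58 ± 0.13, adjusted p = 0.00054). The ranges overlapped for all 3, in Bop1 through late replicate 9. Other markers moved with this comparison, and their part was not tested. In late tumours 10 of 11 macrophage, 9 of 9 T and NK cell and 20 of 25 proliferation genes were lower than at day 1, while 5 of 5 nerve and Schwann cell and 4 of 6 endothelial genes were higher. Rrp9 differed by -0.37 ± 0.09 (0.0014) and Cad by -0.51 ± 0.17 (0.0126), while Ncl at 0.13, Nop56 at 0.14 and Polr1b at 0.05 were not called. Within spike-in set 2, with 8 late tumours and 6 of day 1, the counts were 12 lower and 4 higher (49.1% of all tested genes called). Without late replicate 9 they were 11 and 3 (52.4%). With the Gapdh difference as a covariate they were 2 and 2 (25.7%).

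Among genes of the MYC network, Myc was not called with all 10 late tumours. It read 7.47, 8.10 and 9.80 in late tumours, against 8.76, 8.42, 8.24 and 8.45 at day 0 (difference -0.27 ± 0.27, adjusted p = 0.419), and it was at -0.55 ± 0.29 (0.175) at day 3 and -0.39 ± 0.32 (0.454) at day 6. Its SD was 0.66 in late tumours and 0.37 without late replicate 9, against 0.22 at day 0. Without that tumour the late difference was -0.45 (0.0799), and with only the 2 late tumours of a Gapdh difference of 2 or less it was -0.87 (0.0274). With the spike-in set as a covariate it was 0.47 (0.304). That value is the difference of late replicates 9 and 10 alone from day 0, and replicate 9 had the late maximum of 9.80. In late tumours Max was at -0.88 ± 0.37 (0.0496), a call that ended in 12 of the 14 runs without 1 tumour (0.0535 to 0.0984), and the antagonist Mxd1 was at 0.82 ± 0.21 (0.0019). Mxd3, an antagonist found in proliferating cells, was at -0.82 ± 0.17 (0.00015), Mxd4 at 0.39 ± 0.14 (0.0220), the MAX partner Mga at 0.60 ± 0.13 (0.00038) and the glucose-responsive factor Mlxip at -0.40 ± 0.16 (0.0369). The Mxd4 call ended without day 0 replicate 4 (0.174), that of Mlxip in 8 runs (0.0503 to 0.108), and with the mean of its probe sets Mga was called in the opposite direction, at -0.23 (0.00105). Mycn at -0.14, Mycl at 0.26, Mxi1 at -0.37, Mnt at -0.13, Mlx at 0.03 and Mlxipl at 0.03 were not called (0.0928 to 0.831), with Mxi1 called only without day 0 replicate 2 (-0.52, 0.0302). Max was the 1 network gene with every late tumour below day 0.

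Related lists outside the members, also chosen with earlier results known, were counted in late tumours against day 0, beside 20.1% lower and 26.3% higher over all tested genes. Of 107 other ribosome biogenesis genes, 20 were lower and 25 higher (median -0.01), close to those shares, with Rrp1 at -0.55 ± 0.07 (adjusted p = 7.6e-07), Wdr18 at -0.88 ± 0.13 (2.0e-06) and Nol9 at -0.76 ± 0.12 (4.4e-06) of lowest p. Of 43 cytosolic ribosomal protein genes 8 were lower and 2 higher (median -0.01), led by Rps2 at -0.35 ± 0.08 (0.00043), Fau at -0.25 ± 0.07 (0.0028) and Rps27 at 0.36 ± 0.10 (0.0048). Of 26 polyamine and nucleotide genes 10 were lower and 3 higher. The guanine nucleotide enzyme Impdh1 was at -1.20 ± 0.14 (3.9e-08), the purine enzyme Atic at -1.38 ± 0.18 (4.8e-07) and Azin1, the antizyme inhibitor that protects ornithine decarboxylase, at 1.26 ± 0.18 (1.1e-06). Of 35 other MYC targets 15 were lower and 1 higher, with Cdk4 at -1.16 ± 0.18 (6.3e-06), Farsa at -1.43 ± 0.23 (9.7e-06) and Tfam, the mitochondrial transcription factor, at 0.66 ± 0.09 (7.9e-07). Of 25 proliferation genes 21 were lower and none higher (median -1.12), among them Aurka at -1.46 ± 0.19 (3.5e-07), Plk1 at -1.87 ± 0.25 (5.4e-07) and Cdc20 at -1.25 ± 0.23 (5.9e-05). At day 3 the counts were 17 lower and 5 higher of 107 other ribosome biogenesis genes, and 2 lower and none higher of 25 proliferation genes. Over all tested genes 11.6% were lower and 9.74% higher at day 3. All 5 measured nerve and Schwann cell genes were higher in late tumours than at day 0 (median 4.48), and the list mean per tumour ran from 10.71 to 12.06 in late tumours, against 6.53 to 8.78 at day 0. Their part in the late differences was not tested.

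Late replicate 9 had the highest level of these genes in the whole series, together with the lowest Mki67. It was the highest of the 10 late tumours in 27 of 33 genes, against 15.4% of all tested genes, and the highest of all 41 tumours in 22, against 6.37%. The other 40 tumours were each the highest of 41 in 0 to 2 of these genes. Against the median of the other 9 late tumours it was higher in 32 of 33 genes by a median of 0.86, led by Mybbp1a (11.41, other late tumours 9.23 to 10.91), Ppan (9.26, others 7.67 to 8.26) and Nolc1 (9.39, others 7.63 to 8.68). Npm1 was the exception, at 11.81 against 11.45 to 12.30. Myc read 9.80 in this tumour, against 7.47 to 8.62 in the other 9, and was the highest of all 41. Mki67, a marker of cycling cells, read 7.63, against 7.81 to 10.28, and was the lowest of 41. Of 107 other ribosome biogenesis genes it was the highest late tumour in 64, and of 25 proliferation genes the lowest in 15. The 43 cytosolic ribosomal protein genes differed from the other late tumours by a median of -0.03. Its Gapdh difference was 2.41, within the late range, and its late companion in spike-in set 3, replicate 10, had a mean over the 33 genes of 9.03. No second tumour of that day was at hand, and the cause was not tested.

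**Figure D5:**
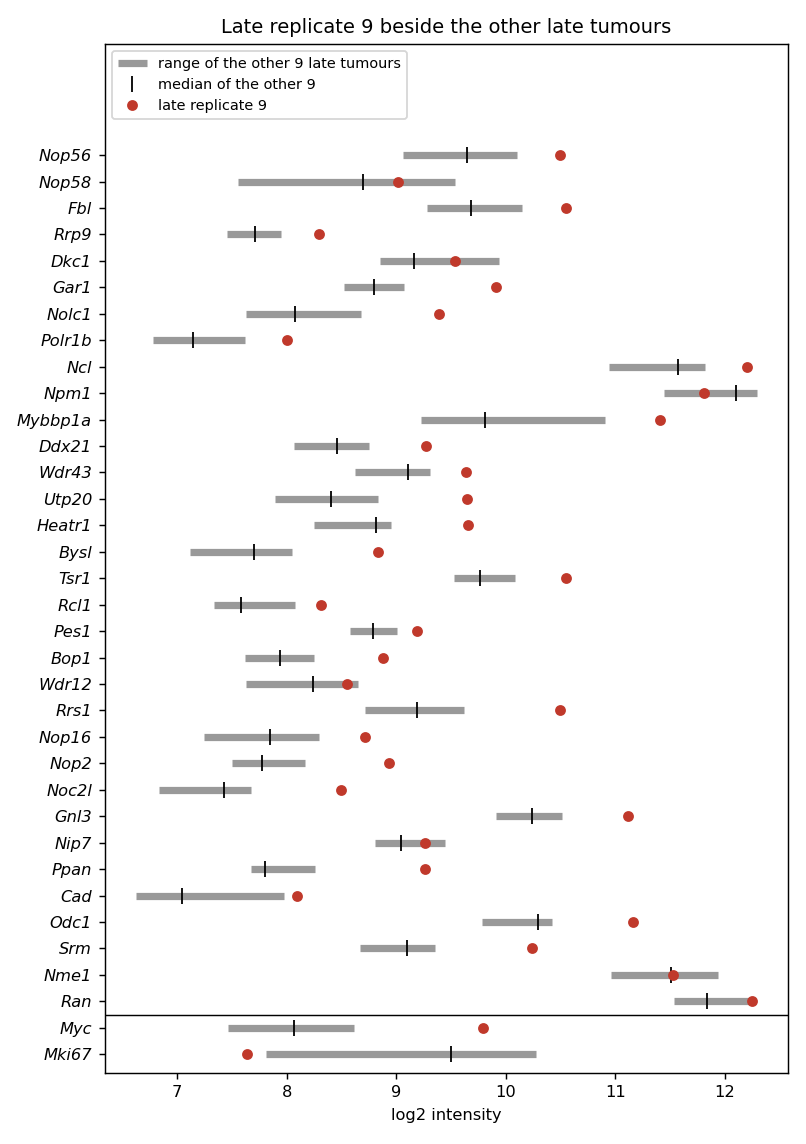
Log2 intensity in late replicate 9 (red points) beside the range (grey bars) and median (black ticks) of the other 9 late tumours for the 33 genes, Myc and Mki67. The red points lie right of the grey bars in 27 of the 33 genes and in Myc, and left of it in Mki67.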

How the data were processed

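Total RNA of 41 trimmed tumours was hybridised to Affymetrix Mouse Genome arrays, 1 array per tumour. The deposited values are linear intensities of 45101 probe sets, and the submitters' processing notes name RMA and MAS5 without saying which made them. No genome build is given in the sources used here. Intensities were taken as log2(value + 16) and quantile normalised. Of the probe sets 34958 name 1 gene, 932 several and 9211 none, and the set of highest mean stood for each of 18194 genes. Genes above the array's 40th percentile on at least 3 arrays (14319) were fitted with group means in limma 3.58.1 (R 4.3.3), with Benjamini-Hochberg adjusted p under 0.05 as a call. The residual degrees of freedom were 32, and the step was tested on simulated data. Spike-in sets were divided at log2 values of 12 (bioD) and 9.4 (dap). Fold changes are on the log2(value + 16) scale and understate those of dim genes. Probe sets of Rrs1, Nme1 and Ran are of a type (names ending in _x_at) that may also bind related transcripts. Those of Nop56, Fbl, Gar1, Wdr43, Tsr1 and Cad have names ending in _s_at. Their binding to other transcripts was not examined. Tested values are given for all members in late tumours against day 0, and elsewhere for the 4 members of lowest p with Ncl, Nop56, Polr1b, Bop1, Odc1 and Cad. Members and lists were chosen with earlier results of these data known. Plots used Python 3.11.15 and matplotlib 3.10.9.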

Additional observations from a re-analysis of the deposited data

Results flagged for a closer look

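Among 210 sets of 4 to 10 tumours (a gene or mean in a group), 26 held a tumour whose gap to its nearest neighbour was wide for the range of the set (Dixon's ratio), and chance flags about 1 in 20 sets. The sets share tumours and include the mean of the same 33 genes, so they are not independent. That rate therefore gives no test of the count of 26. Of the 26, 12 were late replicate 9, always as the highest. Its log2 values, with that of the next late tumour, were those of Gar1 (9.91, next 9.07), Heatr1 (9.65, next 8.95), Bop1 (8.87, next 8.25), Rrs1 (10.49, next 9.61), Nop2 (8.93, next 8.16), Noc2l (8.50, next 7.67). The rest were those of Gnl3 (11.12, next 10.51), Ppan (9.26, next 8.26), Odc1 (11.16, next 10.42), Srm (10.24, next 9.35), Myc (9.80, next 8.62) and the mean of the 33 genes (9.78, next 9.15). In other groups a tumour stood apart as the lowest of its group for Nop58 in day 6 replicate 2 (8.0, next 8.69), Gar1 in day 3 replicate 6 (8.38, next 8.69), Npm1 in day 3 replicate 4 (11.53, next 11.84), Heatr1 in day 3 replicate 3 (8.40, next 8.63), Wdr12 in day 0 replicate 1 (7.36, next 8.19), Nop2 in day 0 replicate 3 (8.20, next 8.52) and Gnl3 in day 2 replicate 1 (9.33, next 9.97). In other groups a tumour stood apart as the highest of its group for Nolc1 in day 1 replicate 4 (8.51, next 8.21), Nolc1 in day 3 replicate 2 (8.79, next 8.38), Bysl in day 0 replicate 2 (8.77, next 8.49), Tsr1 in day 2 replicate 2 (9.69, next 9.34), Bop1 in day 0 replicate 4 (8.70, next 8.65), Ppan in day 1 replicate 3 (8.55, next 8.24) and Cad in day 3 replicate 3 (7.47, next 6.94). No explanation of these values was tested.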

How the results depend on the processing

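The settings tried were other pseudocounts, filters, normalisations, probe set rules, weights, covariates and subsets. Over single genes and pairs, 1306 values kept their direction and side of the threshold, 95 were no longer called, 47 became called, 117 turned sign and 5 moved. Values that turned sign and counts of called members that moved follow, in log2 units where not counts. Medians of the members and pair differences that moved are not listed here. The late median against day 0 without tumours of a Gapdh difference above 2, given above, was among those that moved. Beside a count of called members stands the share of all tested genes called either way, except for the runs without 1 tumour. With the spike-in set as a covariate, day 1 against day 0 gave a called count of 3 (11.5%) and Bop1 0.50, Cad 0.86, Nme1 0.051, Nop56 0.59, Polr1b 0.32; day 2 against day 0 gave a called count of 0 (0.552%) and Bop1 0.45, Cad 0.72, Ncl -0.38, Nop56 0.68, Odc1 0.19, Polr1b 0.27; day 3 against day 0 gave a called count of 0 (0.936%) and Bop1 0.34, Cad 0.52, Nop2 0.19, Nop56 0.37, Polr1b 0.15; day 6 against day 0 gave a called count of 0 (0.489%) and Bop1 0.48, Cad 0.62, Nop2 0.25, Nop56 0.33, Polr1b 0.21; late against day 0 gave Cad 0.079, Gar1 0.24, Heatr1 0.45, Mnt 0.42, Mybbp1a 0.62, Myc 0.47, Nme1 0.19, Noc2l 0.26, Nolc1 0.17, Nop2 0.061, Nop56 0.55, Npm1 -0.20, Polr1b 0.30, Ppan 0.14, Ran 0.071, Rrs1 0.38, Utp20 0.63; late against day 1 gave Nop56 -0.049, Polr1b -0.020. Within 1 spike-in set, late against day 0 gave a called count of 1 (16.3%); day 9 against day 0 gave a called count of 0 (0.00698%). Genes that turned sign in late tumours had the same values as with the covariate. With that covariate and without late replicate 9, added after the data were seen, late against day 0 rests on late replicate 10 alone, and no count is given. It gave Cad 0.016, Dkc1 -0.34, Heatr1 0.094, Mlx -0.015, Mnt 0.63, Mybbp1a 0.37, Mycn 0.043, Nip7 -0.049, Nme1 0.39, Nop56 0.31, Npm1 -0.26, Pes1 -0.079, Ran 0.067, Utp20 0.23, Wdr12 -0.39. In the same fit late against day 1 gave Nop56 -0.049, Polr1b -0.020. Without tumours of a Gapdh difference above 2, day 1 against day 0 gave a called count of 8 (18.2%); day 2 against day 0 gave a called count of 10 (20.6%); day 6 against day 0 gave a called count of 17 (18.2%); day 9 against day 0 gave a called count of 0 (0.168%) and Polr1b 0.0079; late against day 0 gave Ddx21 -0.18, Gnl3 -0.096, Mlxipl -0.32, Mycl -0.18, Pes1 -0.22, Tsr1 -0.035; late against day 1 gave Myc -0.51, Nop56 -0.45, Polr1b -0.35. With the Gapdh difference as a covariate, day 2 against day 0 gave Ncl -0.029, Polr1b 0.0087; late against day 0 gave a called count of 6 (24.2%) and Ddx21 -0.023, Mlxipl -0.20, Mycl -0.16, Nop16 0.10, Npm1 -0.097, Pes1 -0.042; late against day 1 gave a called count of 4 (25.7%) and Myc -0.013, Nop56 -0.26, Polr1b -0.0026. With probe sets averaged per gene, day 1 against day 0 gave a called count of 2 (15.5%); late against day 0 gave Ddx21 -0.51, Dkc1 -0.23, Heatr1 0.038, Mga -0.23, Mlx -0.37, Npm1 -0.095; day 6 against day 2 gave Bop1 -0.048, Cad 0.012. With array weights, day 1 against day 0 gave a called count of 9 (26.1%); day 2 against day 0 gave a called count of 8 (20.8%) and Ncl -0.039; day 6 against day 0 gave a called count of 18 (27.7%); late against day 0 gave Ddx21 -0.047; late against day 1 gave Polr1b -0.0015; day 6 against day 2 gave Bop1 -0.039, Polr1b 0.015. With median centring, day 1 against day 0 gave a called count of 0 (13%); day 2 against day 0 gave a called count of 1 (13%) and Polr1b 0.053; late against day 0 gave Heatr1 0.0011, Nop56 0.050. With the compared groups alone, day 1 against day 0 gave a called count of 3 (12.1%); day 2 against day 0 gave a called count of 6 (11%); day 6 against day 0 gave a called count of 15 (13.6%); day 9 against day 0 gave a called count of 0 (0%); late against day 0 gave a called count of 7 (37.6%). With no normalisation between arrays, day 2 against day 0 gave Polr1b 0.044; late against day 0 gave Nop56 0.026, Npm1 -0.013. With a pseudocount of 64, day 2 against day 0 gave Polr1b 0.00017. Leaving out 1 tumour at a time gave counts of called members of 0 to 3 for day 1 against day 0, 0 to 3 for day 2 against day 0, 9 to 15 for day 3 against day 0, 2 to 7 for day 6 against day 0, 0 to 0 for day 6 against day 2, 0 to 6 for day 9 against day 0, 9 to 18 for late against day 0, 11 to 15 for late against day 1. Signs turned in such runs, with values between the bounds given, for Bop1 day 6 against day 2 (-0.019 to 0.092), Cad day 6 against day 2 (-0.24 to 0.014), Dkc1 late against day 0 (-0.00034 to 0.24), Heatr1 late against day 0 (-0.15 to 0.010), Mlx late against day 0 (-0.0057 to 0.049), Mlxipl late against day 0 (-0.035 to 0.20), Mnt late against day 0 (-0.22 to 0.010), Myc late against day 1 (-0.087 to 0.24), Ncl day 2 against day 0 (-0.093 to 0.080), Ncl day 3 against day 0 (-0.14 to 0.037), Nop56 late against day 0 (-0.097 to 0.093), Npm1 late against day 0 (-0.077 to 0.062), Pes1 late against day 0 (-0.0056 to 0.064), Polr1b day 2 against day 0 (-0.086 to 0.083), Polr1b day 6 against day 2 (-0.14 to 0.025), Polr1b day 9 against day 0 (-0.36 to 0.0079), Polr1b late against day 1 (-0.039 to 0.097). The causes were not tested. No paired analysis was possible because the labels give no replicate numbers, and those used here are names in accession order. Precision is limited by the number of arrays, since 4 tumours carry every comparison with day 0.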
